A study of Mus musculus with 91 samples.

Results

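The comparison covered 56 of the 91 single cells sequenced from the caudal lateral epiblast of mouse embryos, namely the cells with the most and the least mitotic messenger RNA in each of 2 cell classes. Levels are given as CPM, a gene's share of all gene-assigned reads of a cell scaled to 1000000. A cell was epiblast-like when its CPM of Nkx1-2, an epiblast and axial progenitor gene, was above that of Aldh1a2, which makes retinoic acid in paraxial mesoderm, and mesoderm-like otherwise, which gave 43 and 48 cells. The mitotic score of a cell was the mean log2(CPM + 1) of Ccnb1, Cdc20, Plk1, Cenpe, Cenpf, Aurka, Bub1, Ccna2, Top2a and Hmmr. The 14 cells with the highest score in a class are called its high end and the 14 with the lowest its low end, and 15 epiblast-like and 20 mesoderm-like cells lay between.

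The cells came from wild type MF1 outbred embryos at the early head fold stage, around embryonic day 8.0. The tissue beside the caudal node and the anterior primitive streak was dissected, most of the underlying mesoderm was removed, and the pieces were pooled before dissociation and sorting into 1 plate. No embryo of origin is recorded, so the 91 cells are 1 sample, no test between cells was possible, and every SD below is a spread over cells and not a replicate error. Each library was full-length cDNA without molecular identifiers, so intervals on shares of cells cover counting error only.

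A dividing cell copies its genome in S phase, passes through G2 and separates the copies in mitosis. Transcripts of the replication machinery are made mainly around the start of S phase under E2F transcription factors, whereas those of the mitotic kinases, motors and kinetochore are made in G2 and M, largely through the MuvB complex acting with B-Myb and FOXM1, and are cleared as the cell leaves mitosis. Epiblast at this stage cycles fast, with short gap phases, and the progenitors that feed the axis keep dividing as they form mesoderm.

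The score spread more widely in mesoderm-like than in epiblast-like cells, and the difference lay at the bottom of the range. The epiblast-like high end ran from 7.92 to 8.69 (median 8.33) and the low end from 5.28 to 6.99 (median 6.6). The mesoderm-like high end ran from 8.06 to 9.12 (median 8.38) and the low end from 3.55 to 5.82 (median 5.17). The high ends therefore covered much the same scores, while 11 of the 14 cells of the epiblast-like low end scored above every cell of the mesoderm-like one.

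**Figure D1:**
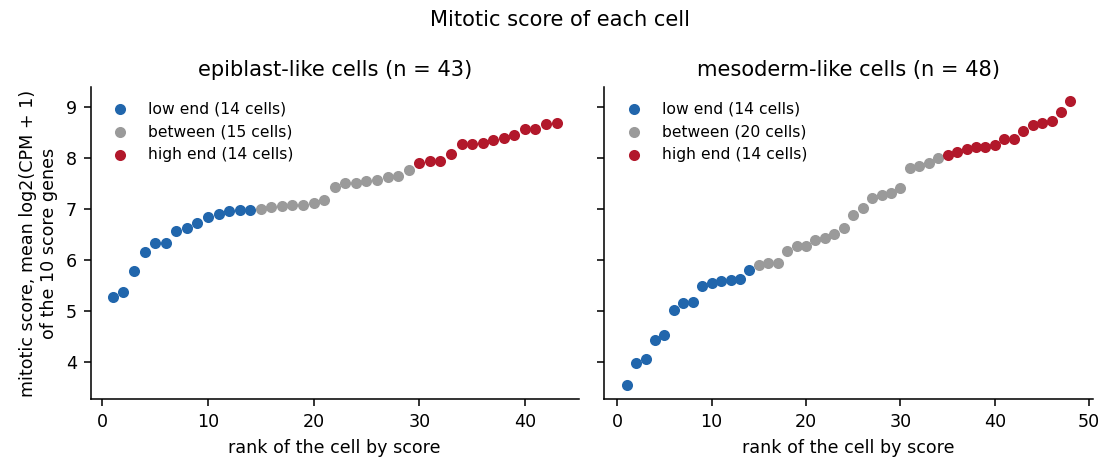
Mitotic score of each cell (y axis, mean log2(CPM + 1) of the 10 score genes) against its rank within its class (x axis), for 43 epiblast-like and 48 mesoderm-like cells, with the 14 cells of each high end in red, the 14 of each low end in blue and the cells between in grey. The high ends reach 8.69 and 9.12, and the low ends start at 5.28 and 3.55.

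Of the 43 epiblast-like cells 3 scored under 6 (6.98%, with an exact Clopper-Pearson 95% interval of 1.46 to 19.1%), as did 17 of the 48 mesoderm-like cells (35.4%, 22.2 to 50.5%). A score of 8 or more was found in 11 of 43 (25.6%, 13.5 to 41.2%) and 15 of 48 (31.2%, 18.7 to 46.3%). The cells just outside the high ends scored 7.77 in epiblast-like and 8.0 in mesoderm-like cells, and the cells just outside the low ends scored 7.0 and 5.92. The low edge in epiblast-like cells was the least distinct, with 7 cells within 0.2 of it.

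The classes were set by Nkx1-2 and Aldh1a2, so the levels of these genes are given only as a description. Each is on a marker list of 8 genes. All 8 epiblast markers had reads in at least 7 of 14 cells in both ends of the epiblast-like class, and all 8 mesoderm markers in both ends of the mesoderm-like class. The same held for 5 and 4 epiblast markers in the mesoderm-like high and low ends, and for 2 mesoderm markers in each epiblast-like end. Presence of reads therefore parted the classes for some markers and not for others. Msgn1 had reads in 14 of 14 cells of each mesoderm-like end and in 0 and 2 of 14 high and low epiblast-like cells. Lef1 had reads in at least 13 of 14 cells of every end. Nkx1-2 was at 975 ± 305 CPM in the high and 948 ± 331 in the low epiblast-like cells (mean ± SD, n = 14 cells each). Aldh1a2 was at 1690 ± 920 and 1466 ± 513 CPM in the high and low mesoderm-like cells, and at 0.347 and 0.454 CPM in the 2 epiblast-like ends. Markers of node, blood and endothelium, lateral mesoderm and germ cells summed to at most 56.2 CPM in any of the 56 cells, those of endoderm to at most 0.376 CPM, and those of neural and surface ectoderm to at most 165 CPM, with a median under 2 CPM for each type in each end.

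The 10 score genes did not contribute alike. Cenpf, a kinetochore and nuclear matrix protein of G2 and M, separated the ends most clearly in the epiblast-like class. It ran from 205 to 743 CPM in the high end (median 418) and from 1.19 to 200 CPM in the low end (median 77.3), with no overlap. In mesoderm-like cells it ran from 158 to 830 CPM (median 422) against 0 to 216 CPM (median 28), where the ranges overlapped. Cdc20, the activator of the anaphase-promoting complex, behaved differently in the 2 classes. It ran from 247 to 813 CPM in the high (median 461) and from 132 to 1007 CPM in the low epiblast-like cells (median 405), so the ends could not be told apart by it. In mesoderm-like cells it ran from 297 to 1411 CPM (median 882) against 46.4 to 873 CPM (median 306). Bub1, a spindle checkpoint kinase, was close to equal between the ends of both classes, at 346 ± 179 and 264 ± 192 CPM in epiblast-like and 366 ± 311 and 351 ± 251 CPM in mesoderm-like cells.

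Plk1 and Aurka, kinases of mitotic entry and spindle assembly, and Ccnb1, the cyclin partner of Cdk1, were nearer to absent in the mesoderm-like low end than in the epiblast-like one. Plk1 averaged 278 ± 142 CPM in the high and 144 ± 143 in the low epiblast-like cells, and 364 ± 204 and 53.4 ± 77.5 CPM in the mesoderm-like ones. Aurka averaged 224 ± 115 against 110 ± 108 CPM, and 283 ± 173 against 27.7 ± 36.6 CPM. Ccnb1 averaged 769 ± 167 against 411 ± 359 CPM, and 621 ± 291 against 133 ± 117 CPM. Reads of Plk1 were present in 14 of 14 epiblast-like and 8 of 14 mesoderm-like low cells, and those of Cenpe, the kinetochore motor, in 12 and 6. Of the 10 score genes, 4 reached a 2-fold ratio of means in the epiblast-like and 8 in the mesoderm-like class; since the score was built from them, these values only describe how the cells were chosen.

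Across the 8643 other genes with a mean of at least 10 CPM over all 91 cells, a gene was called when the means of the ends (each plus 1 CPM) differed at least 2-fold and the gene had a read in 7 or more of the 14 cells of its higher end. In the epiblast-like class 450 genes were higher in the high end (5.21% of tested genes) and 330 in the low end (3.82%). In the mesoderm-like class the numbers were 872 (10.1%) and 345 (3.99%). Only a small part was common to both classes. Called in both were 80 genes higher in the high end (0.926% of tested genes, 17.8% of the epiblast-like and 9.17% of the mesoderm-like calls) and 27 genes higher in the low end (0.312%, and 8.18% and 7.83% of the calls). A further 71 genes (0.821%) were called in opposite directions, 45 of them higher in the mesoderm-like high end and 26 higher in the epiblast-like high end.

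Gene by gene, the log2 ratios of the 2 classes were nearly unrelated (Pearson r = 0.018 across 8643 genes, which are not independent). The exception was the set of 151 tested genes on 6 mitotic lists, none of them a score gene, for which r was 0.37. Over the 8419 genes on neither these lists nor a list of DNA replication and S phase genes r was 0.007. These values describe the pooled cells and carry no test.

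**Figure D2:**
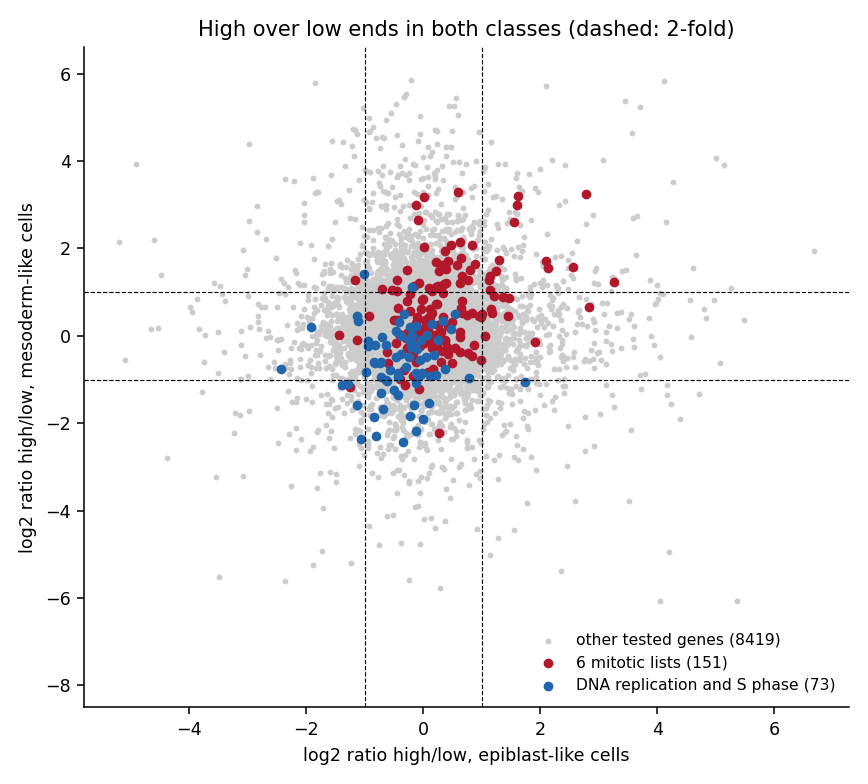
Each point is 1 of 8643 tested genes, with the log2 ratio of high over low end in epiblast-like cells on the x axis and in mesoderm-like cells on the y axis, and dashed lines at 2-fold. The 151 genes of the mitotic lists (red) extend into the upper right, the 73 genes of DNA replication and S phase (blue) into the lower left, and the other 8419 genes (grey) spread in all directions.

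Genes of the mitotic lists were called more often than tested genes as a whole in both high ends. Of their 151 tested genes, 22 were higher in the epiblast-like high end (14.6%, beside 5.21% of all tested genes) and 47 in the mesoderm-like high end (31.1%, beside 10.1%). Called in both were 12 (7.95%, beside 0.926%), against 1 lower in both and 1 opposite. The median log2 ratio of the 151 genes was 0.22 and 0.44 in the 2 classes, beside -0.03 and 0.10 over all tested genes, and 73 of them (48.3%) had a ratio above 0 in both, beside 25.7% of all tested genes. With a score corrected for the number of genes detected, an alternative chosen after seeing the data, the mitotic-list calls were 19 in the epiblast-like and 23 in the mesoderm-like high end. These stood beside 448 and 584 of all 8643 tested genes, and the median log2 ratios of the lists were 0.24 and 0.23. Over all 16 alternatives these calls ran from 17, with each class split at its median score, to 61, with the difference of mean log2 levels, in epiblast-like cells and reached 81 with the latter in mesoderm-like cells. Calls over all 8643 tested genes moved as well, with 262 beside the 17, 1632 beside the 61 and 2009 beside the 81. Of the 22 mitotic genes called in epiblast-like cells 54.5% were also called in mesoderm-like cells, beside 31.1% of all 151 mitotic-list genes. Of the 428 other genes called in epiblast-like cells 15.9% were, beside 9.72% of all other genes.

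The 12 shared mitotic genes served several steps of division. The motors and cytokinesis factors were Prc1 and Kif23, which bundle the central spindle, Fam83d, which places casein kinase on the spindle, Kpna2, an importin, together with Depdc1b and Arhgap11a. The kinases were Cdk1, the master kinase of mitosis, and Aurkb, of the chromosomal passenger complex. The kinetochore genes were Spc25, Ndc80 and Zwilch, and the last was Ube2c, the ubiquitin-conjugating enzyme of the anaphase-promoting complex. Kpna2 and Arhgap11a lie outside the rule for named genes and are given after their values were seen, to complete the 12.

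Ube2c was the gene that most cleanly parted the mesoderm-like ends. It ran from 178 to 787 CPM in the 14 high cells (median 350) and from 0 to 135 CPM in the 14 low cells (median 72.4), so that the ranges did not meet. No other gene of 8643 had ends without overlap in the mesoderm-like class (0.0116% of tested genes), and none had in the epiblast-like class. There Ube2c ran from 81.2 to 659 CPM in the high (median 306) and from 0 to 323 CPM in the low end (median 91.7). Its log2 ratio was 2.60 in mesoderm-like and 1.54 in epiblast-like cells.

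Kpna2 and Cdk1 were present in nearly every cell and differed in amount. Kpna2 ran from 77.3 to 943 CPM in the high epiblast-like cells (median 734) and from 0 to 569 CPM in the low ones (median 94.2), with a log2 ratio of 2.13. In mesoderm-like cells it ran from 299 to 1082 CPM (median 666) against 52.1 to 528 CPM (median 136), with a log2 ratio of 1.56. In both classes the middle of the high end lay above the highest low cell. Cdk1 ran from 107 to 541 CPM (median 382) against 0.255 to 387 CPM (median 124) in epiblast-like cells, and from 223 to 681 CPM (median 386) against 0.591 to 370 CPM (median 79.5) in mesoderm-like cells. Its log2 ratios were 1.29 and 1.72, and in both classes the ends overlapped.

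Prc1 and Fam83d were instead missing from many low cells. Prc1 had reads in 13 of 14 high cells of each class and in 7 and 8 of 14 low cells, with medians of 83.9 against 0.179 CPM in epiblast-like and 146 against 5.71 CPM in mesoderm-like cells and log2 ratios of 2.10 and 1.71. Fam83d had reads in 12 of 14 high cells of each class and in 4 and 3 low cells, at means of 67.8 ± 56 against 8.98 ± 21.7 CPM and 116 ± 106 against 11.4 ± 23.9 CPM. Kif23 had reads in 14 and 13 high and in 11 and 5 low cells, and its log2 ratio was 1.62 and 3.20. The log2 ratios of the other 6 genes lay between 1.12 and 3.26 in epiblast-like cells, and between 1.05 and 2.98 in mesoderm-like cells. Of these, Spc25 averaged 556 ± 213 against 252 ± 172 CPM and 495 ± 200 against 192 ± 155 CPM, and Aurkb 270 ± 127 against 113 ± 84.8 CPM and 210 ± 99.9 against 74.5 ± 101 CPM.

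**Figure D3:**
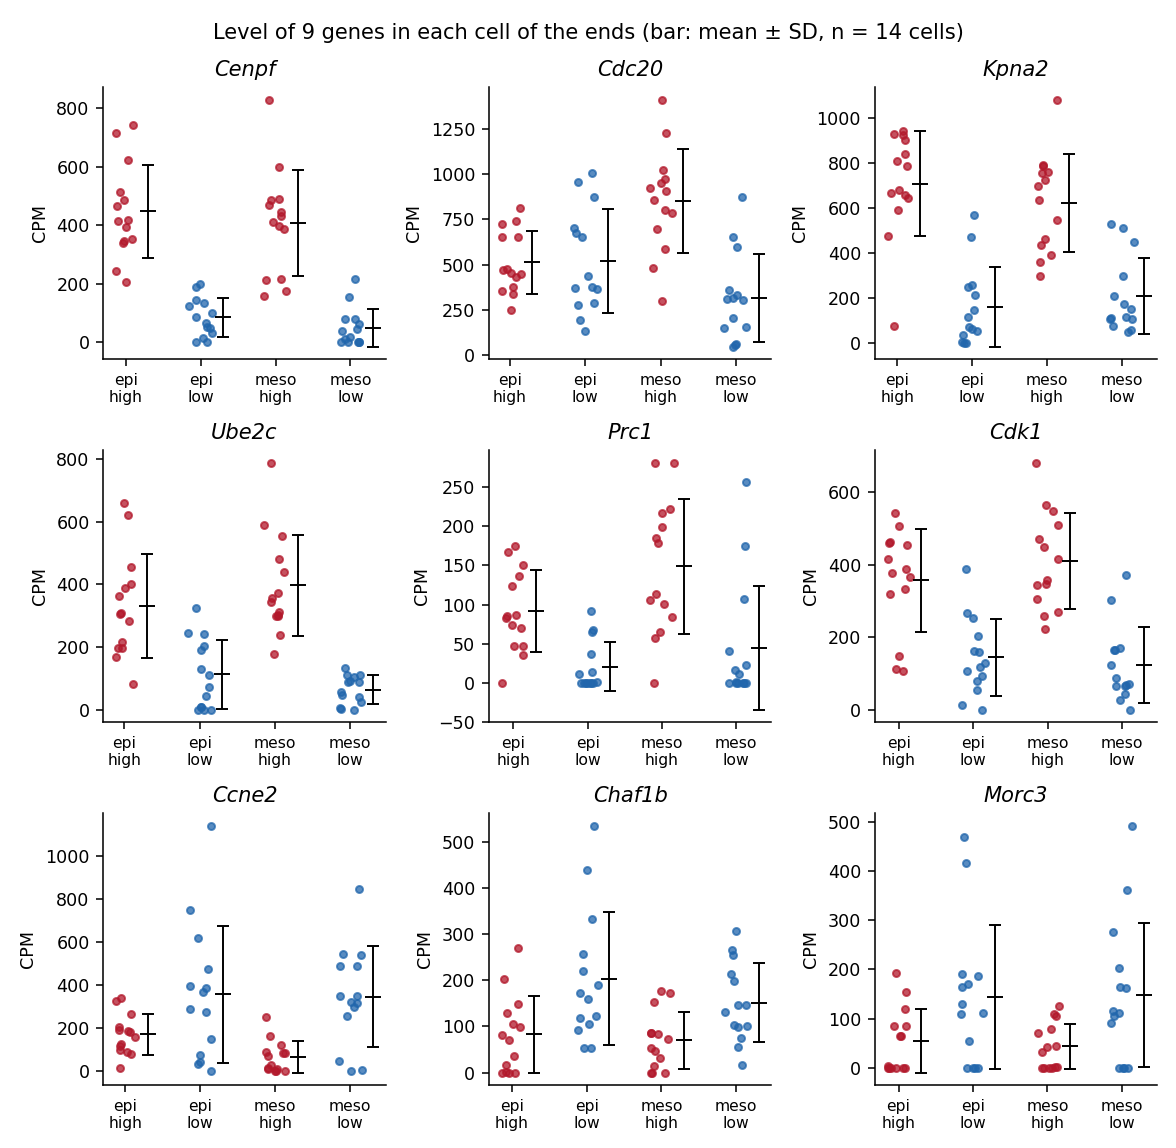
CPM (y axis, linear) of 9 genes in each of the 14 cells of the high (red) and low (blue) ends of the epiblast-like (epi) and mesoderm-like (meso) classes, with the mean and SD over cells as black bars. Cdc20 differs between the ends of mesoderm-like cells alone, Kpna2, Ube2c, Prc1 and Cdk1 are higher in both high ends, and Ccne2, Chaf1b and Morc3 are higher in both low ends, with Ube2c the 1 tested gene whose ends do not meet in mesoderm-like cells.

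The letters of the promoters were a feature that the score did not use. They were compared with those of the other shared genes, of the mitotic-list genes not called in both and of all genes, and not with those of all genes called in 1 class. The cell cycle genes homology region (CHR), TTTGAA, is the element through which MuvB complexes bind, and CCAAT boxes, bound by NF-Y, often stand a short way upstream of it. Both were searched on both strands in the 300 bases from 250 before to 50 after each annotated start. Of the 12 shared mitotic genes 9 had a promoter in the table used, and all 9 held TTTGAA, beside 20.2% of all 27025 genes with a promoter, 14% of tested genes and 48.3% of the mitotic-list genes that were not called in both. The 53 shared genes outside the mitotic lists that could be matched held it in 20.8%. CCAAT was present in 8 of the 9, in 39.6% of the 53 and in 41.1% of all genes. Of the score genes 9 were matched, of which 6 held TTTGAA and 9 held CCAAT. No test was made, since the genes were picked by their values, and a match of 6 letters is not a bound site.

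The windows of 3 score genes and 3 of the shared genes are shown from the RefSeq annotation of GRCm38.p6, each read 5′ to 3′ along the gene's strand. Capitals mark TTTGAA or its reverse complement and CCAAT or its reverse complement. Plk1 (chr7:122159185-122159484, plus strand) and Cenpf (chr1:189688037-189688336, minus strand) hold both elements, whereas Ccnb1 (chr13:100786437-100786736, minus strand) has CCAAT boxes without TTTGAA or the variant TTCGAA. Prc1 (chr7:80294201-80294500, plus strand), Kif23 (chr9:61946750-61947049, minus strand) and Ube2c (chr2:164769679-164769978, plus strand) hold both.
Ccnb1: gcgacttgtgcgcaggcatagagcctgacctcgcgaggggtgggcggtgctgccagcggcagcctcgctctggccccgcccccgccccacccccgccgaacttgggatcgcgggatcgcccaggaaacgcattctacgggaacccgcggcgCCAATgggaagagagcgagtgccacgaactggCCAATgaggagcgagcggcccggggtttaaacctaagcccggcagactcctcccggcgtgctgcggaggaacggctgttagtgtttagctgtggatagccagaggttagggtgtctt
Plk1: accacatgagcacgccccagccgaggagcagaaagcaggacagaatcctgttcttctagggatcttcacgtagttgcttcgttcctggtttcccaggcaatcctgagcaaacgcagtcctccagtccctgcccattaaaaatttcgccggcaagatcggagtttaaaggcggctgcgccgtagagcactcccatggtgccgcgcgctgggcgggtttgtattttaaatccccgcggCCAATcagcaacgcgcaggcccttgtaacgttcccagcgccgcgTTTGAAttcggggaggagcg
Cenpf: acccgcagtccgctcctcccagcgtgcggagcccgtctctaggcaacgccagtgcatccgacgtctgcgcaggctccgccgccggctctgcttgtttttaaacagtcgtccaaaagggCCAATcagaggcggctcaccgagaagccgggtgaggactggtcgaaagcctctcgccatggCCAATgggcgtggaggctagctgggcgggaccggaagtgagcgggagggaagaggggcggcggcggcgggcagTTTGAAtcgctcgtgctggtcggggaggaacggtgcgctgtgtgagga
Prc1: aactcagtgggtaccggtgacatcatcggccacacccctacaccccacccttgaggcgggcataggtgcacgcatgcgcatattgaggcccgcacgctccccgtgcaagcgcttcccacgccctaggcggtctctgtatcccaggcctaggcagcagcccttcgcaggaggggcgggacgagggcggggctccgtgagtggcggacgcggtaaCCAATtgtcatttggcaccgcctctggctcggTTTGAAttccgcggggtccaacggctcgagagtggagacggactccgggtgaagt
Kif23: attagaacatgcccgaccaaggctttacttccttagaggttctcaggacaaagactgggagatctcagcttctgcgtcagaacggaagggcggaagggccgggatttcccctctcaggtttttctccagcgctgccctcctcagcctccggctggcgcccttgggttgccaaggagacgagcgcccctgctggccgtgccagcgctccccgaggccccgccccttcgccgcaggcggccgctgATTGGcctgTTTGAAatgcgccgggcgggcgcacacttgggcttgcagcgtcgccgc
Ube2c: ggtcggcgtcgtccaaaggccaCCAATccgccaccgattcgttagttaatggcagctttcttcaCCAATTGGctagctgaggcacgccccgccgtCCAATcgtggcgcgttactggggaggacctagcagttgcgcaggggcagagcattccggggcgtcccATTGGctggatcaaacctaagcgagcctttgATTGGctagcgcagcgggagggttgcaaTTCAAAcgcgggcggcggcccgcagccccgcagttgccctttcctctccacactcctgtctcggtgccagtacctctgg
In Prc1 the element lies at position -5 relative to the start and a CCAAT box at -37, in Cenpf at 3 and -71, and in Ube2c, on the opposite strand, at -29 with a reversed CCAAT box at -57. Matches of these letters describe the windows and say nothing of binding.

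**Figure D4:**
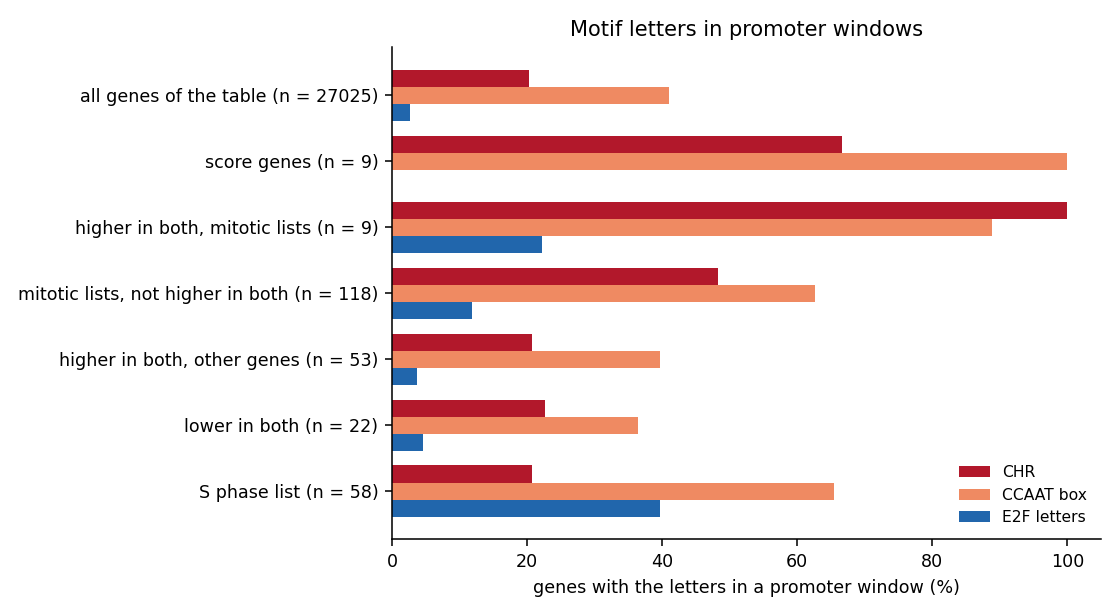
Share of genes (x axis, %) with at least 1 promoter window that holds TTTGAA (CHR), CCAAT or one of the 4 E2F-type letter strings, for 7 sets of genes with the number matched to a promoter in brackets. TTTGAA is present in 100% of the 9 shared mitotic genes and in 20.8% of the 53 other genes higher in both classes, and the E2F letters are most frequent in the S phase list, at 39.7%.

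The mitotic lists differed in how many members were called. Of all tested genes 5.21% were higher in the epiblast-like high end, 10.1% in the mesoderm-like one and 0.926% in both. Of the 36 tested genes for kinesins, spindle and cytokinesis, 9 were higher in the epiblast-like and 23 in the mesoderm-like high end, with 6 in both, and the median log2 ratio was 0.38 and 1.20. The 36 kinetochore genes gave 7, 9 and 3, the 7 genes of the chromosomal passenger complex and shugoshins 2, 2 and 1, and the 23 genes of the spindle checkpoint and anaphase-promoting complex 1, 6 and 1. The 19 regulators of mitotic entry and exit gave 2, 6 and 1. Of the 30 genes for condensin, cohesin and mitotic chromatin, 1 was higher in each high end and none in both. In the epiblast-like high end 2 of them were lower, and 1, the condensin II subunit Ncapd3, was lower in both. In epiblast-like cells 1 of 23 and 1 of 30 were no larger shares than that of all tested genes.

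Ncapd3 went against the other mitotic genes. It ran from 3.95 to 136 CPM in the high epiblast-like cells (median 81.3) and from 1.81 to 501 CPM in the low ones (median 153), and from 0 to 235 CPM (median 25) against 5.32 to 246 CPM in mesoderm-like cells. Its log2 ratios were -1.25 and -1.17. Dsn1, of the kinetochore, was called in opposite directions, at 39 ± 48.3 against 88.8 ± 82.9 CPM in epiblast-like and 56.8 ± 67.9 against 22.9 ± 49.4 CPM in mesoderm-like cells. Several familiar mitotic genes were not called in epiblast-like cells although they were in mesoderm-like ones. Mki67, a coat of mitotic chromosomes, had log2 ratios of 0.88 and 1.65, Tpx2, a spindle assembly factor, 0.37 and 1.95, and Bub1b, a checkpoint kinase, 0.64 and 1.79. Of the 35 mitotic genes called in mesoderm-like cells alone, 25 had an epiblast-like ratio above 0, with a median log2 ratio of 0.26. Whether the classes differ in these genes was not tested. These 3 genes were chosen after their values were seen.

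Genes of DNA replication and S phase went the other way. Of 73 tested, 8 were higher in the epiblast-like low end (11%, beside 3.82% of all tested genes) and 19 in the mesoderm-like low end (26%, beside 3.99%), with 4 in both (5.48%, beside 0.312%). With each class split at its median score the calls were 2 and 9 of 73, beside 159 and 190 of all 8643 tested genes. With the score corrected for genes detected they were 4 and 13, beside 386 and 458 of 8643. In epiblast-like cells the share of S phase genes called was thus close to that of all tested genes in both settings. The median log2 ratio was -0.34 in epiblast-like and -0.63 in mesoderm-like cells, and 47 of the 73 had a ratio below 0 in both classes (64.4%, beside 21.8% of all tested genes). The 1 gene of the list called in opposite directions was Blm, a helicase of recombination repair, at 160 ± 103 against 47.4 ± 78.4 CPM in epiblast-like and 68.4 ± 91.8 against 144 ± 146 CPM in mesoderm-like cells.

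The 4 genes lower in both high ends were Ccne2, the late-G1 cyclin partner of Cdk2, Ung, a uracil glycosylase of replication-linked repair, Chaf1b, a chromatin assembly subunit, and E2f8, a repressor of the E2F program. Ccne2 ran from 15.8 to 342 CPM in the high epiblast-like cells (median 171) and from 2.67 to 1141 CPM in the low ones (median 331). In mesoderm-like cells it ran from 0 to 255 CPM (median 48.7) against 3.68 to 850 CPM (median 335). The ends overlapped in both classes. The low median lay below the highest high cell in epiblast-like cells and above it in mesoderm-like cells. Its log2 ratio was -1.06 and -2.35, that of Ung -1.14 and -1.58, that of Chaf1b -1.29 and -1.10 and that of E2f8 -1.39 and -1.13. Chaf1b had reads in all 14 low cells and in 11 of 14 high cells of each class.

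Pcna, the sliding clamp, and Mcm5, of the replicative helicase, were not called and were chosen after their values were seen. Pcna averaged 557 ± 191 against 563 ± 209 CPM in epiblast-like cells (log2 ratio -0.01) and 387 ± 149 against 695 ± 299 CPM in mesoderm-like cells (-0.84). Mcm5 had log2 ratios of -0.39 and -0.41. The late-G1 cyclin Ccne1 had log2 ratios of -0.85 and -1.86, and Cdc6, a licensing factor, -0.81 and -2.29.

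Summed over the 74 genes of the list, S phase transcripts took 10103 to 16493 CPM in the high epiblast-like cells (median 13398) and 12496 to 21615 CPM in the low ones (median 16431), and 7 of the 14 low cells lay above every high cell. In mesoderm-like cells the sums were 6612 to 13894 CPM (median 9732) and 9388 to 18846 CPM (median 16286), and 13 of the 14 low cells lay above every high cell. The low ends of the 2 classes had closely similar medians and the high ends did not. The 154 genes of the mitotic lists summed to medians of 26558 against 21592 CPM in epiblast-like and 27426 against 20729 CPM in mesoderm-like cells, with 12 and 13 of the 14 high cells above every low cell.

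**Figure D5:**
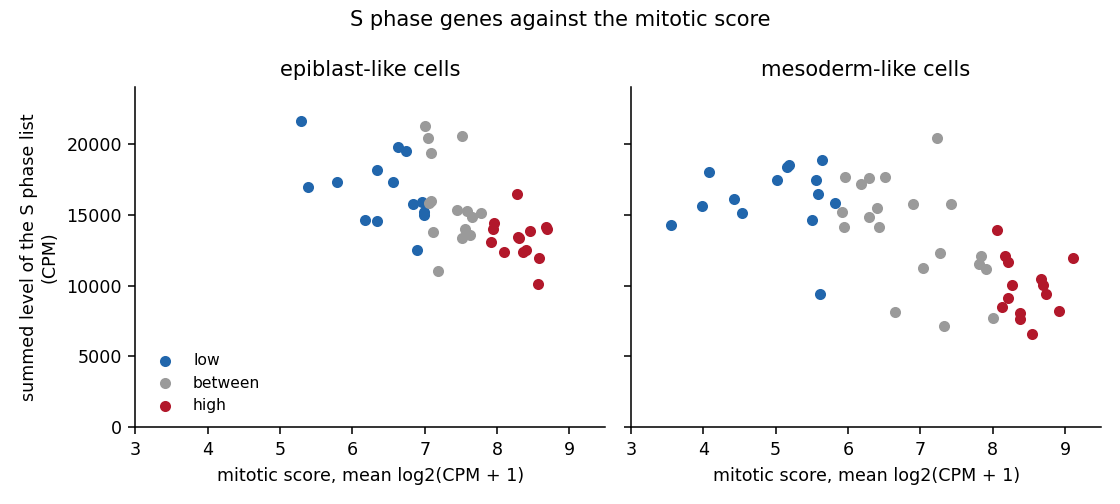
Summed level of the S phase list (y axis, CPM) against the mitotic score (x axis) in each cell, by class, with the high ends in red, the low ends in blue and the cells between in grey. The sum falls with the score in both classes, with medians of 16431 CPM in the low and 13398 CPM in the high epiblast-like end and of 16286 and 9732 CPM in the mesoderm-like ends, and the cells between the ends follow with rank correlations of -0.52 and -0.53.

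The cells between the ends took no part in these contrasts, although they come from the same pool. Among them the S phase sum had a Spearman correlation with the score of -0.52 in 15 epiblast-like and -0.53 in 20 mesoderm-like cells. The sum of the 154 mitotic genes had a correlation of 0.23 and 0.29. With the mean log2 level in place of the sum the correlations were -0.10 and -0.57 for the S phase list and 0.39 and 0.17 for the mitotic lists, so the relation of S phase genes in epiblast-like cells between the ends was weak on that scale. For single genes the relation was weak. The median correlation over the 12 shared mitotic genes was 0.07 and 0.11, over the 68 other shared genes 0.01 and 0.01, and over all tested genes 0.05 and -0.02. The 27 genes lower in both had medians of -0.12 and -0.14. The cells are of 1 pool and differ in depth and in the number of genes detected, so these values are descriptions.

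The promoters of the S phase list shared CCAAT with those of the mitotic lists, at 65.5% and 64.6% of matched genes, and differed in E2F letters. One of TTTGGCGC, TTTCCCGC, TTTCGCGC or TTTGCCGC, forms of the E2F site that were picked after the processed files were at hand, was present on either strand in 39.7% of its 58 matched genes, beside 2.61% of all genes, 12.6% of the mitotic lists, 22.2% of the 9 shared mitotic genes and 0 of the 9 matched score genes. TTTGAA was present in 20.7% of the S phase list. Of the 22 matched genes lower in both high ends, 1 held E2F letters, and Ung, Chaf1b and E2f8 were not among those that did.

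Outside the mitotic lists, 68 genes were higher in both high ends, which is 0.801% of the 8492 tested genes outside the mitotic lists. By the rule for named genes the strongest were BC024063, Ranbp6, Ppp1r16a, Aak1, Klhl20, Det1, Arhgef39, Tada1, Man2c1, Sbf1 and Hoxaas3. Most were low and patchy. BC024063 averaged 29.4 ± 61.4 against 1.32 ± 2.58 CPM and 38.9 ± 77 against 0.0573 ± 0.214 CPM, with reads in 7 of 14 high cells of each class and a median under 0.2 CPM in each, so that a few cells carried its mean. Ranbp6, an importin relative, had reads in 8 and 13 high and in 5 and 6 low cells, with log2 ratios of 2.42 and 3.90. Klhl20, an adaptor of a cullin ubiquitin ligase, and Det1, another ligase component, had reads in 8 or 9 high cells of each class and in 1 to 4 low cells. Tada1, a SAGA subunit, had reads in 11 and 9 high and in 2 and 5 low cells.

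The shared calls thinned out where genes were abundant, and more of those that remained were on the cell cycle lists. The lists themselves lie at high levels, with 141 of 151 mitotic and 68 of 73 S phase genes at a mean of at least 30 CPM. Higher in both high ends were 12 of the 151 and 11 of the 141. Among the 2939 tested genes with a mean of 10 to 30 CPM, 41 were higher in both high ends and 34 were opposite, and 1 of the 41 was on a mitotic list. Among the 3395 at 30 to 100 CPM the numbers were 33, 34 and 6. Among the 2309 above 100 CPM, 6 were higher in both and 3 were opposite, and 5 of the 6 were on a mitotic list, while 3 were lower in both and all 3 were on the S phase list.

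Of the genes lower in both high ends, 22 were on neither list. By the rule the strongest were Samd8, Nbn, Tmem87b, Kif7, Tmem205, Morc3, Nrm, Npat, Nupl2 and Ddx3y. Some have known ties to the genome or the nucleus. Npat, which drives replication-dependent histone genes in S phase, averaged 25.7 ± 36.3 against 65.2 ± 84.8 CPM in epiblast-like and 33.8 ± 49.9 against 99.8 ± 129 CPM in mesoderm-like cells. Nbn, of the MRN complex that senses double-strand breaks, averaged 28.8 ± 25.8 against 90.8 ± 96.4 CPM and 32 ± 42 against 111 ± 97.5 CPM. Morc3, a nuclear ATPase, had medians of 34.3 against 121 CPM and 36.8 against 113 CPM, and Nrm, a nuclear envelope protein, of 9.22 against 38.5 CPM and 26.8 against 64.6 CPM. The ends overlapped for all 4 genes in both classes.

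Ddx3y is Y-linked, and the sexes of the cells were unevenly spread. Cells with at least 5 CPM of Y-linked genes made up 10 of 14 high and 11 of 14 low epiblast-like cells, but 5 of 14 high and 9 of 14 low mesoderm-like cells. Cells with at least 5 CPM of Xist made up 2 and 0, and 6 and 1, and no cell had both. Among cells with at least 5 CPM of Y-linked genes alone, an alternative chosen after seeing the data, the log2 ratios of Ddx3y were -1.11 and -4.86. Ddx3y is itself among the genes summed for that choice, so these values do not separate its level from the sex of the cells. Its call did not hold in either class when single cells were left out. In the 5 high and 9 low mesoderm-like cells with Y-linked reads 790 genes were higher in the low end, against 345 in all 28 cells. Genes higher in the high end rose as well, to 1173 against 872, and opposite calls to 138 against 71. These groups are smaller, and whether sex bears on the counts was not tested.

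Of 15 tested epiblast genes and 17 paraxial mesoderm genes none was called in the same direction in both classes, which for lists of this size cannot be told from the 0.926% and 0.312% of all tested genes. Cdh1 averaged 289 ± 179 against 296 ± 176 CPM in epiblast-like cells, Pou5f1 93.0 ± 59 against 108 ± 64.6 CPM, and T, the primitive streak factor, 207 ± 285 against 112 ± 218 CPM. In mesoderm-like cells T averaged 471 ± 313 against 449 ± 380 CPM, Tbx6 425 ± 283 against 240 ± 177 CPM (log2 ratio 0.82) and Msgn1 200 ± 79.9 against 102 ± 74.9 CPM (0.97), both of them regulators of presomitic mesoderm and both short of 2-fold.

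Some identity genes were called in mesoderm-like cells alone. Snai1, a repressor of epithelial genes, averaged 37.8 ± 33.6 CPM in the high and 6.94 ± 18.5 CPM in the low mesoderm-like cells, with reads in 9 and 3 of 14 cells, and was at 4.74 ± 12.3 and 10.6 ± 21.5 CPM in the epiblast-like ends, with reads in 2 and 3 cells. Wnt8a averaged 40.4 ± 48.7 against 2.24 ± 5.77 CPM in mesoderm-like and 128 ± 111 against 157 ± 114 CPM in epiblast-like cells. Sox2 was called in mesoderm-like cells from means of 3.06 and 0.30 CPM, which few reads support, and was at 29.6 ± 36.3 against 17.4 ± 28.3 CPM in epiblast-like cells. Nanog averaged 1.88 ± 2.05 against 12.6 ± 31.8 CPM in mesoderm-like cells. Whether the classes differ in these genes was not tested.

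Among 29 tested genes of axial progenitors and signalling, 3 were higher in the epiblast-like high end (beside 5.21% of all tested genes) and 7 in the mesoderm-like high end (beside 10.1%), and the 1 in both (beside 0.926%) was Spry4, a feedback inhibitor of FGF signalling. Spry4 ran from 0 to 117 CPM in the high (median 30) and from 0 to 41.5 CPM in the low epiblast-like cells (median 3.54), and from 0 to 154 CPM (median 53.5) against 0 to 35.6 CPM (median 0) in mesoderm-like cells. The ends overlapped in both classes, with log2 ratios of 1.47 and 2.83. Dusp1, a MAP kinase phosphatase among 6 tested immediate early genes, went the other way, at 14.4 ± 20.2 against 56.8 ± 65.9 CPM and 23 ± 32.6 against 52 ± 73.6 CPM. Cdh2 was called in opposite directions, at 14.2 ± 21.9 against 41.5 ± 53.5 CPM in epiblast-like and 99.7 ± 69.5 against 46.8 ± 39 CPM in mesoderm-like cells, and so was Hoxa5.

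Of all tested genes 5.21% were higher and 3.82% lower in the epiblast-like high end, and 10.1% and 3.99% in the mesoderm-like one. Calls were rarer among the 2309 genes above 100 CPM, with 25 higher and 14 lower in the epiblast-like and 66 and 45 in the mesoderm-like high end. None of the 75 tested cytosolic ribosomal protein genes and none of the 10 mitochondrial messenger RNAs was called in either class. That alone does not show that they are steadier than other abundant genes. Of 23 glycolysis and hypoxia genes and of 26 ribosome biogenesis genes, 1 was higher in each high end (beside 5.21% and 10.1%) and none in both. Of 23 tested G1 cyclins, inhibitors and pocket proteins, 1 was higher in the epiblast-like high end (beside 5.21%), the inhibitor Cdkn1c at 41.5 ± 50.3 against 17.2 ± 22.9 CPM. In the mesoderm-like high end 2 were lower (beside 3.99%). Of 24 centriole and centrosome genes, 4 were higher in the epiblast-like high end (beside 5.21% of all tested genes), 2 were higher and 2 lower in the mesoderm-like one, and 1, Cep135, was higher in both. Of 27 primary cilium genes, 1 was higher and 1 lower in the epiblast-like high end and 4 were higher and 4 lower in the mesoderm-like one (beside 10.1% and 3.99%), and 1, Kif7, was lower in both. Of 20 p53 targets and apoptosis genes, 2 were higher and 2 lower in the mesoderm-like high end (beside 10.1% and 3.99%). None was called in epiblast-like cells (beside 5.21% and 3.82%). For a list of this size such counts cannot be told from the shares of all tested genes. Of 10 tubulins 1 was lower in the mesoderm-like high end (beside 3.99%), as was 1 of 5 canonical histone genes, whose messages mostly lack the poly(A) tail that this method primes from.

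Technical measures moved with the score as well. Thinned to 500000 counts, high epiblast-like cells had reads for 7109 to 8724 genes (median 7770) and low ones for 6304 to 8174 (median 6968). In mesoderm-like cells the numbers were 6472 to 9030 (median 7031) and 4958 to 7177 (median 6675). Gene-assigned reads had medians of 2.51e+06 in the high and 2.29e+06 in the low epiblast-like cells, and of 2.55e+06 and 2.37e+06 in the mesoderm-like cells, within 7.10e+05 to 4.44e+06 over all 91 cells. Mitochondrial reads took a median of 4.05% in the high and 3.04% in the low epiblast-like cells, but 4.50% and 5.73% in the mesoderm-like cells. Of the mesoderm-like cells 5 high and 11 low ones lay in the upper 4 of the 8 plate rows, and 7 and 5 of the epiblast-like ones. A score taken as the distance from a straight-line fit on the number of genes detected, an alternative chosen after seeing the data, left 54 genes higher in both high ends, 25 of them among the 80 and 6 of them mitotic, namely Depdc1b, Fam83d, Prc1, Ube2c and Spc25 of the 12 and 1 other.

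When each of the 28 cells of a class was left out in turn, 25 of the 80 genes higher in both kept every call, among them 9 of the 12 mitotic genes. Depdc1b, Fam83d, Prc1 and Ube2c were called in both classes under each of the 16 alternative settings, and of the genes lower in both Morc3 was. Of the 27 genes lower in both, 4 kept every call when single cells were left out, namely Morc3, Nrm, Nbn and Ncapd3, and none of the 4 S phase genes did.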

How the data were processed

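Single cells were sorted into 1 plate, lysed and amplified as full-length cDNA, and the libraries were sequenced as single-end reads of 75 bases. The authors aligned reads to GRCm38 (mm10) with HISAT2 and deposited raw featureCounts counts per gene for each cell. The sources used here give no versions, annotation, strand setting or treatment of reads with several matches. Full-length counts carry no molecular identifiers and favour long messages. Levels were therefore not compared between genes, except in the class rule, the minimum level, the groups by level and the sums over lists.

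The 53379 rows gave 53274 symbols. Counts were divided by the column sum and scaled to CPM, with Python 3.11.15, numpy 2.4.6, pandas 2.3.3 and scipy 1.17.1. Classes, score and ends were set as in the report, the 10 score genes were left out, and 8643 genes with a mean of at least 10 CPM were compared by the ratio of means with a pseudocount of 1 CPM. The thresholds were 2-fold and reads in 7 of 14 cells. All cells come from 1 pool, so no p-value or SE was computed. Shares carry exact Clopper-Pearson 95% intervals. Scripts were tested on simulated data.

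Named genes were the score genes, the 15 genes higher and the 10 lower in both classes with the largest smaller absolute log2 ratio, up to 4 members of each list called in both classes or else up to 2 called in 1, and Nkx1-2, Aldh1a2, T, Sox2, Tbx6, Cdh1, Pou5f1, Msgn1 and Snai1. The members and lists were chosen with earlier results of these data known. Promoter windows came from RefSeq. Alternatives for scaling, pseudocount, level filter, size of the ends, score, classes and depth were run.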

Additional observations from a re-analysis of the deposited data

How the results depend on the processing

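Counts are given in the order higher in the epiblast-like high end, higher in its low end, the same for mesoderm-like cells, higher in both high ends, higher in both low ends, and opposite, which were 450, 330, 872, 345, 80, 27 and 71 in the report. With a pseudocount of 10 CPM they were 232, 173, 536, 199, 32, 14 and 16. With a minimum mean of 30 CPM they were 241, 184, 501, 215, 39, 19 and 37. With the difference of mean log2(CPM + 1) they were 1632, 395, 2009, 460, 560, 33 and 219. With 10 cells at each end they were 728, 469, 1109, 532, 139, 45 and 124, and with each class split at its median score 262, 159, 329, 190, 20, 10 and 24. Calls that held without any 1 cell numbered 225, 122, 450, 147, 25, 4 and 15. Of 2 alternatives chosen after seeing the data, the score corrected for genes detected gave 44 genes higher in both low ends, and cells with Y-linked reads alone gave 790 genes higher in the mesoderm-like low end, 60 higher in both low ends and 138 opposite. The other counts stayed within 1.5 times of those in the report, but similar counts did not mean the same genes. Of the 80 genes higher in both, 44 recurred with the score without Ccna2 and Top2a and 52 with score genes scaled to unit SD. With scaling by size factors and the ends remade 53 recurred. Of the 27 genes lower in both, 13, 18 and 17 recurred in these settings.

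Of 1436 values for 46 named genes, 1231 kept their call or stayed uncalled, 186 lost their call and 13 gained one in the same direction. The remaining 6 changed sign and were called in the report or in the alternative. Changes of sign among values called in neither were not counted. In log2 ratios these 6 were Man2c1 in epiblast-like cells at -0.62 and Nupl2 there at 0.0041, both with the median split, Sbf1 in mesoderm-like cells at -0.034 with the median split, -0.34 with a score without Ccna2 and Top2a and -0.37 in cells with Y-linked reads, and Nkx1-2 in mesoderm-like cells at -1.73 in cells with Y-linked reads. The cause was not tested. No paired analysis was possible because the cells carry no replicate numbers shared between groups. The alternative without spike-in rows was not run, since 0 rows of the table are spike-ins. With 1 pool and 14 cells an end, spread between embryos could not be measured, and genes near 10 CPM rest on few cells.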
